A study of Homo sapiens with 6 samples.

Results

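The 10 genes described here encode enzymes that make serine and pass its carbon through folate, together with the folate carrier SLC19A1 and the methionine adenosyltransferase MAT2A. They were chosen by name, with earlier results of these data known. They are PHGDH, PSAT1, PSPH, SLC19A1, SHMT1, MTHFD1, SHMT2, MTHFD2, MTHFD1L and MAT2A, and all 10 were found among the 58825 gene identifiers of the table. RNA was sequenced from FaDu, an established human line grown from a hypopharyngeal squamous tumour. There were 3 libraries of FaDu cells carrying a short hairpin RNA (shRNA) against NSUN2, called shNSUN2, and 3 libraries of FaDu cells with no shRNA, called FaDu. NSUN2 is a methyltransferase that places 5-methylcytosine on tRNAs and some mRNAs. The comparison has no non-targeting hairpin, so loss of NSUN2, the hairpin, its delivery and any selection cannot be told apart. Nothing in the labels says that replicates came from separate cultures, so p-values measure only the spread between these libraries, which may be technical.

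Cells make serine from a glycolytic intermediate in a short chain of steps run by PHGDH, PSAT1 and PSPH. Serine hydroxymethyltransferases then move a carbon from serine to tetrahydrofolate, in the cytosol through SHMT1 and in mitochondria through SHMT2. Mitochondrial MTHFD2 and MTHFD1L carry that carbon on to formate, which leaves for the cytosol, where the trifunctional MTHFD1 returns it to folate for purine, thymidylate and methionine synthesis. MAT2A makes S-adenosylmethionine, the methyl donor of most cellular methylation, RNA methylation by NSUN2 included. Several genes of serine synthesis and of the mitochondrial arm are known targets of the stress factor ATF4, and the pathway is often raised in proliferating tumour cells.

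Library totals were 58577723 to 72788971 estimated counts in shNSUN2 and 53612358 to 72043755 in FaDu. NSUN2 itself had 50.4, 34.7 and 39.6 CPM (counts scaled to library size) in shNSUN2, against 169, 173 and 156 CPM in FaDu, a log2 fold change of -1.997 (SE 0.16, with adjusted p = 0.000526 in edgeR). Libraries of 1 group correlated across genes at r = 0.964 to 0.974 (Pearson, log2 CPM), and libraries of different groups at 0.935 to 0.953. Replicate 3 of shNSUN2 stood apart most in its dependence on GC content. Its log2 difference from the other shNSUN2 libraries had a Spearman rho of 0.423 with GC content and -0.287 with transcript length across 19033 genes, which are not independent replicates. For replicate 1 of shNSUN2 these were -0.329 and 0.227. All 8 squamous epithelial markers looked up were detected, with summed levels of 2207 to 2668 CPM in shNSUN2 and 4271 to 4345 CPM in FaDu. The sum does not stand for every marker. EPCAM was called higher in shNSUN2 (log2 fold change 0.57, with adjusted p = 0.0125 in edgeR) and CDH1 did not pass (0.07, adjusted p = 0.742), while the rest were called lower. Of 6 leukocyte markers, PTPRC was at 0 in every library, and the list summed to 28.4 to 34.6 CPM in shNSUN2 and 23.2 to 41.4 CPM in FaDu, nearly all of it CD68. Summed markers were higher in shNSUN2 for smooth muscle (2.21 to 13.3 CPM, against 0.972 to 1.16 CPM in FaDu) and plasma cells (1.07 to 4.67 CPM, against 0 to 0.214 CPM). They were also higher for prostate epithelium (47.6 to 63.9 CPM, against 30.5 to 33.2 CPM) and endothelium (31.7 to 54.6 CPM, against 4.07 to 5.84 CPM). The endothelial sum was mostly CDH5 in shNSUN2 and mostly VWF in FaDu, and VWF did not pass the test (edgeR adjusted p = 0.669). The highest smooth muscle and plasma cell sums, 13.3 and 4.67 CPM, both came from replicate 1 of shNSUN2. Fibroblast markers summed to 6.44 to 11.6 CPM in shNSUN2 and 9.04 to 9.50 CPM in FaDu, mostly COL1A1, which did not pass the test. COL1A2 alone of that list was called, higher in shNSUN2 (edgeR adjusted p = 0.0127). It had 0.562, 0.286 and 0.311 CPM in shNSUN2 and was at 0 in every FaDu library. The part of these transcripts in the results below was not tested.

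Promoter sequences are shown for 4 of the 5 called members, and for the 1 member whose promoter held both motifs searched. RefSeq gave windows from 250 bases before to 50 bases after a start site (GRCh38.p14) for 8 of the 10 members, 14 windows in all. PSPH and SHMT2 were not among them. Both strands were searched for TGATGNAA, the core of the element bound by ATF4 with C/EBP proteins, and for CACGTG, the E-box bound by MYC and USF proteins. The motifs do not overlap each other in these windows, and capitals mark them in the sequences, which are printed 5′ to 3′ on the gene's own strand.
PHGDH, chr1:119711904-119711933, plus strand: gactggggagcgggagctggagaatactgc
PSAT1, chr9:78297025-78297124, plus strand: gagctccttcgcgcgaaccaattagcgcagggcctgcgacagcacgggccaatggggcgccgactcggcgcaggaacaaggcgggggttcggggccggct
SHMT1, chr17:18363551-18363650, minus strand: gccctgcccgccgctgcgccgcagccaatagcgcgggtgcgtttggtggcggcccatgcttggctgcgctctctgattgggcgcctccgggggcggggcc
MTHFD1, chr14:64388323-64388352, plus strand: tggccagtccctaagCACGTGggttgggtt
MTHFD1L, chr6:150866306-150866405, plus strand: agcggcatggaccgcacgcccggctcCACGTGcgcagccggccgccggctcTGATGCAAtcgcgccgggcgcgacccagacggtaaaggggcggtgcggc

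The first 4 stretches end at position -1, the base before the start site, and the stretch of MTHFD1L runs from position -180 to -81 of the start at 150866486. TGATGNAA was found in MTHFD1L alone among these members, as TGATGCAA at -129, and the same copy lies in the windows of 2 nearby MTHFD1L starts. The E-box was found in MTHFD1 at -15, in MTHFD1L at -154 and in SLC19A1 at 33, behind 1 of its 4 starts. Among all 35116 windows, 3.62% held TGATGNAA and 7.26% held CACGTG. These matches describe letters in a short window and say nothing of binding.

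The question put to the members is how their transcripts differ between FaDu cells with and without the hairpin. Genes of serine synthesis fell or did not pass the test, the folate carrier and both cytosolic enzymes rose, and the 3 mitochondrial enzymes had lower means that did not pass. All 10 members passed the filter on low counts and were tested among 19081 genes. At an edgeR adjusted p under 0.05, calls were made for 5 of the 10, of which 3 rose and 2 fell in shNSUN2. Over the whole table the calls were 8.54% higher and 9.97% lower, or 18.5% of tested genes in either direction. Because the members were chosen with earlier results of these data known, setting their count beside these shares is not an independent test. The CPM of the groups did not overlap for 7 of the 10 members, 3 higher and 4 lower in shNSUN2, against 42.3% of all tested genes. The median log2 fold change of the members was -0.14, beside -0.0069 for all tested genes. In bulk RNA, fewer cells that express a gene and less of its RNA per cell cannot be told apart.

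**Figure D1:**
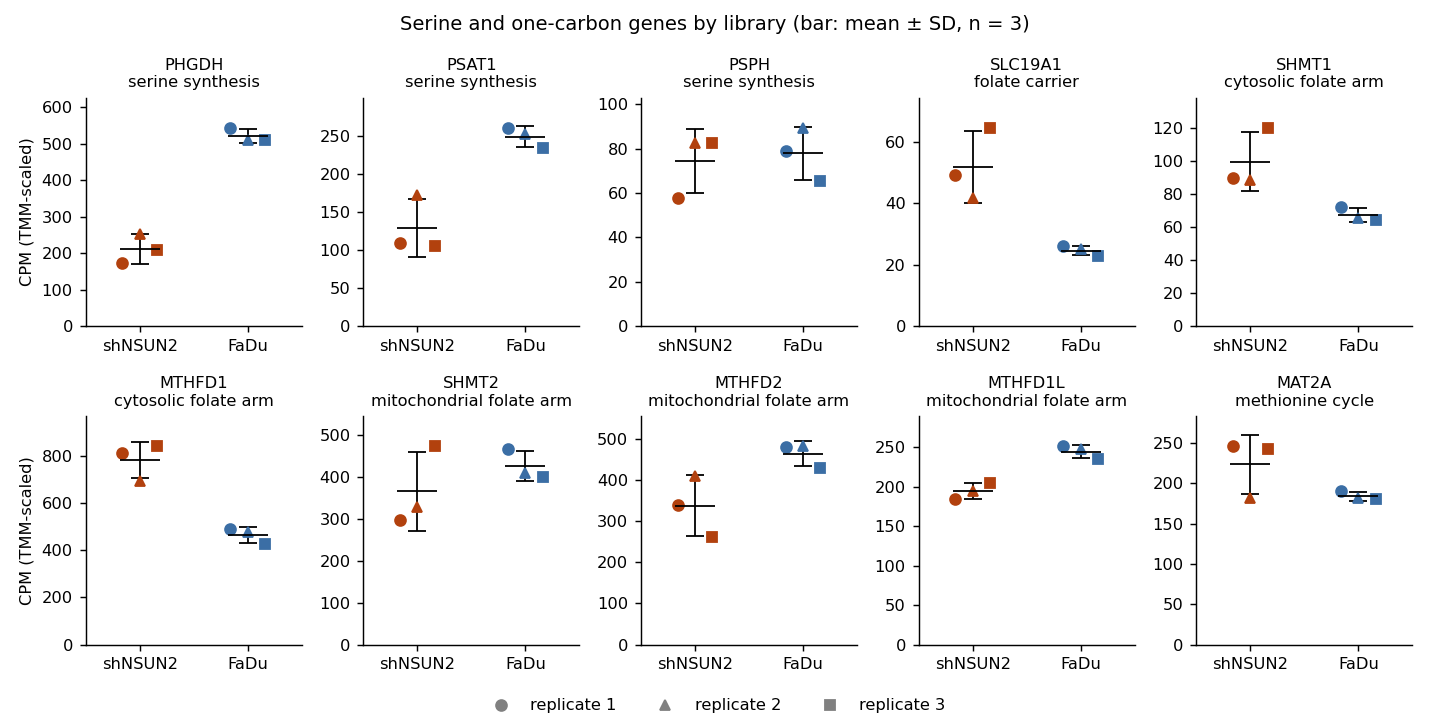
TMM-scaled CPM of the 10 genes (vertical axes, each from 0) in the 3 shNSUN2 libraries (left, orange) and the 3 FaDu libraries (right, blue), with the mean and SD and a symbol per replicate. PHGDH and PSAT1 lie lower in every shNSUN2 library, SLC19A1, SHMT1 and MTHFD1 lie higher, and PSPH, SHMT2 and MAT2A overlap.

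In serine synthesis, PHGDH and PSAT1 fell, and PSPH did not pass the test. PHGDH, the dehydrogenase that opens the pathway, lies on chromosome 1 from 119648411 to 119744226 (GRCh38, plus strand). It had 172, 254 and 207 CPM in shNSUN2, against 544, 510.5 and 511 CPM in FaDu. The highest shNSUN2 library thus stood at less than every FaDu library, and the FaDu libraries lay close together. The mean was 211 ± 41.1 CPM in shNSUN2 and 522 ± 19.4 CPM in FaDu (SD, n = 3 each), 40.5% of the FaDu level by the fitted fold. PHGDH fell by 1.31 on the log2 scale (SE 0.15; adjusted p = 0.00184 in edgeR), at percentile 7.24 of the fold changes of all tested genes.

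PSAT1, the aminotransferase of the next step (chromosome 9, 78297143 to 78330093, plus strand), had 109, 172 and 105 CPM in shNSUN2, against 260.5, 252 and 234 CPM in FaDu. Again the groups did not overlap, and replicate 2 of shNSUN2 lay nearest to FaDu, as it did for PHGDH. The fitted log2 difference was -0.95 (SE 0.20; adjusted p = 0.0155 in edgeR). The call was lost without shNSUN2 replicate 1 (adjusted p = 0.0574) and without FaDu replicate 1, 2 or 3 (0.0572, 0.0598 and 0.0523), with log2 fold changes of -0.84, -0.92, -0.94 and -0.99. PSPH, the phosphatase that releases serine (chromosome 7, 56011051 to 56051604, minus strand), had 57.8, 82.8 and 82.6 CPM in shNSUN2, against 78.9, 89.5 and 65.4 CPM in FaDu. These groups overlapped, and the log2 fold change of -0.07 (SE 0.18, with adjusted p = 0.834 in edgeR) was smaller than its error. The pseudogene PSPHP1 was also counted, at 4.14 to 5.81 CPM in shNSUN2 and 5.13 to 5.98 CPM in FaDu. Whether reads were misassigned between it and PSPH was not tested, so the counts of PSPH may be uncertain. The pseudogenes of the other members each had at most 1.05 CPM.

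The folate carrier rose. SLC19A1, which brings reduced folates into the cell (chromosome 21, 45493572 to 45544411, minus strand), had 49.3, 41.7 and 64.7 CPM in shNSUN2, against 26.0, 25.1 and 22.8 CPM in FaDu. Every shNSUN2 library exceeded every FaDu library, with the highest value in shNSUN2 replicate 3. SLC19A1 rose by 1.07 on the log2 scale (SE 0.18; adjusted p = 0.00685 in edgeR), at percentile 95.7 of all tested genes, and stayed at 0.89 without shNSUN2 replicate 3 (adjusted p = 0.00414). SLC19A1 shares 1401 exonic bases with COL18A1 on the opposite strand, and no source used here says that strand was kept. COL18A1 itself had 21.1, 23.3 and 24.0 CPM in shNSUN2, against 22.7, 22.1 and 32.7 CPM in FaDu, and did not pass the test (edgeR adjusted p = 0.526).

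Both cytosolic enzymes rose. MTHFD1, which interconverts formate and the other folate-bound carbon units (chromosome 14, 64388031 to 64463457, plus strand), had 813, 697 and 844 CPM in shNSUN2, against 491, 477 and 429 CPM in FaDu. The groups were well apart, by more than the range within either. The mean was 784 ± 77.6 CPM in shNSUN2 and 466 ± 32.5 CPM in FaDu (SD, n = 3 each), with a log2 fold change of 0.75 (SE 0.12, with adjusted p = 0.00562 in edgeR). SHMT1, the cytosolic serine hydroxymethyltransferase (chromosome 17, 18327860 to 18363563, minus strand), had 89.7, 88.1 and 119.9 CPM in shNSUN2, against 72.1, 65.4 and 64.1 CPM in FaDu. The groups did not overlap, and replicate 3 of shNSUN2 lay above the other shNSUN2 libraries. SHMT1 rose by 0.56 on the log2 scale (SE 0.15; adjusted p = 0.0377 in edgeR). The call was lost without shNSUN2 replicate 1 (adjusted p = 0.0594) and without FaDu replicate 1, 2 or 3 (0.0886, 0.135 and 0.144), with log2 fold changes of 0.64, 0.62, 0.54 and 0.53. Without shNSUN2 replicate 3 it was 0.41 (adjusted p = 0.0199).

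None of the 3 mitochondrial enzymes passed the test, although each had a lower mean in shNSUN2. MTHFD2, a dehydrogenase and cyclohydrolase best known from embryos and tumours (chromosome 2, 74198562 to 74217565, plus strand), had 339.6, 409.8 and 262 CPM in shNSUN2, against 479.8, 483 and 429 CPM in FaDu. The groups did not overlap, but the shNSUN2 libraries spread widely. Its log2 fold change was -0.46 (SE 0.17; adjusted p = 0.0926 in edgeR), and without shNSUN2 replicate 2 it was -0.63 and called (adjusted p = 0.0339). MTHFD1L, the mitochondrial formyltetrahydrofolate synthetase (chromosome 6, 150865549 to 151101887, plus strand), had 184, 194 and 205 CPM in shNSUN2, against 251, 247 and 235 CPM in FaDu. Its groups did not overlap either and were tight, with a log2 fold change of -0.33 (SE 0.10, with adjusted p = 0.0585 in edgeR). MTHFD1L was called by DESeq2 (log2 fold change -0.33, adjusted p = 0.0293), under a filter of at least 1 CPM in 3 libraries (-0.36, adjusted p = 0.035), with a correction for GC content and length (-0.31, adjusted p = 0.0227) and without shNSUN2 replicate 3 (-0.37, adjusted p = 0.0157). Other settings moved it away from the threshold. With replicate number as a block the edgeR adjusted p was 0.146, and with single libraries left out it reached 0.206.

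SHMT2, the mitochondrial serine hydroxymethyltransferase (chromosome 12, 57229327 to 57234935, plus strand), had 297, 328 and 474 CPM in shNSUN2, against 467, 411 and 400.1 CPM in FaDu. Replicates 1 and 2 of shNSUN2 lay lower than every FaDu library and replicate 3 higher than all of them. Over all 3 the log2 fold change was -0.22 (SE 0.18; adjusted p = 0.447 in edgeR). Without shNSUN2 replicate 3 it was -0.44 (adjusted p = 0.02). With the correction for GC content and length it was -0.26 (adjusted p = 0.178), and under that correction MTHFD2 was called at -0.38 (adjusted p = 0.04).

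MAT2A did not pass the test. It had 246, 182 and 243 CPM in shNSUN2, against 190.3, 181 and 180 CPM in FaDu (chromosome 2, 85539165 to 85545280, plus strand). Replicates 1 and 3 of shNSUN2 lay higher than FaDu, and replicate 2 lay among the FaDu libraries. Its log2 fold change was 0.28 (SE 0.14; adjusted p = 0.199 in edgeR), and 0.41 without shNSUN2 replicate 2 (adjusted p = 0.0443). MAT2A shares 558 exonic bases with GGCX on the opposite strand, which had a log2 fold change of 0.10 (SE 0.11, with adjusted p = 0.577 in edgeR). Further overlaps on the opposite strand join MTHFD2 to SLC4A5 over 1324 exonic bases, SHMT1 to SMCR8 over 196 and MTHFD1 to ZBTB25 over 178. SLC4A5 had at most 3.61 CPM in any library, and SMCR8 and ZBTB25 had log2 fold changes of -0.24 and -0.33 that did not pass the test. A pair of opposite-strand neighbours fell. ENSG00000264324, which shares 295 exonic bases with MTHFD2, had 0.813, 0.640 and 0.696 CPM in shNSUN2, against 3.60, 3.67 and 8.08 CPM in FaDu (log2 fold change -2.83, with adjusted p = 0.0029 in edgeR). NDUFA4L2, which shares 33 with SHMT2, had 0.369, 0.758 and 0.548 CPM in shNSUN2, against 2.50, 2.59 and 2.63 CPM in FaDu (log2 fold change -2.20, with adjusted p = 0.00392 in edgeR). Both levels are small beside those of MTHFD2 and SHMT2. The antisense genes ENSG00000272909 and ENSG00000258824, which share 756 and 101 exonic bases with MTHFD1, did not pass the test (edgeR adjusted p = 0.266 and 0.458), and ENSG00000276727, which shares 427 with SHMT2, was too low to be tested.

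**Figure D2:**
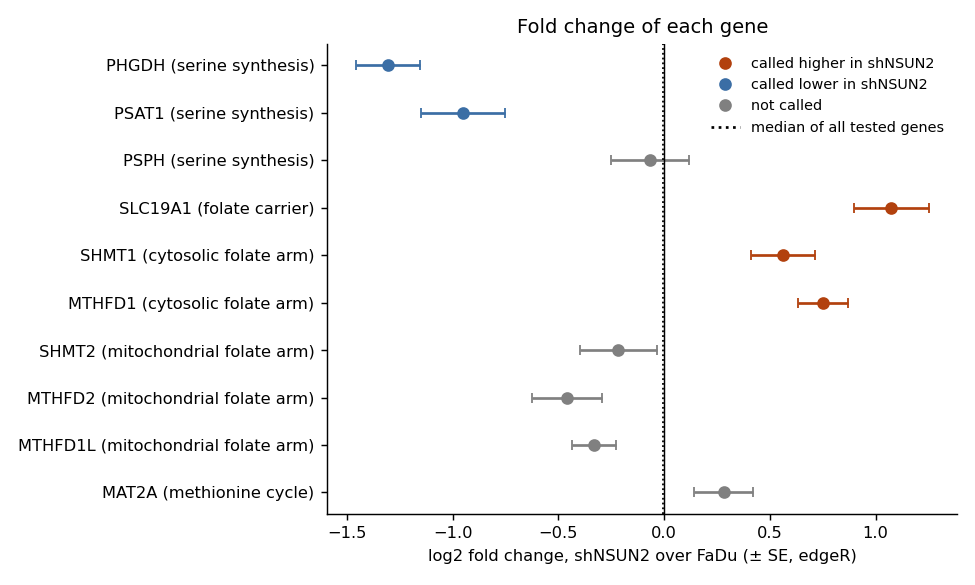
Log2 fold change of shNSUN2 over FaDu for each gene (horizontal axis, bars ± SE from edgeR), in order of role, with the median of all tested genes dotted. The 3 called increases are the carrier and both cytosolic enzymes, from 0.56 to 1.07, and the 2 called decreases, -0.95 and -1.31, are in serine synthesis.

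Levels of different genes were compared per length, as TPM, a length-scaled share of the library, computed from the counts and the length of a representative transcript. In shNSUN2 the order, from the highest, was MTHFD1 (479.7 ± 44.9 TPM), SHMT2 (274 ± 44.4), PHGDH (157 ± 33.7), MAT2A (152 ± 25.0), MTHFD2 (147 ± 41.6), PSAT1 (114 ± 38.5), MTHFD1L (103 ± 4.60), SHMT1 (76.7 ± 6.78), PSPH (65.3 ± 10.8) and SLC19A1 (25.9 ± 3.83 TPM, SD, n = 3). Ranges of neighbours overlapped from PHGDH to MTHFD1L and between SHMT1 and PSPH, so the order within those runs is not set. In FaDu the order was PHGDH (385 ± 8.15 TPM), SHMT2 (320.1 ± 18.1), MTHFD1 (283 ± 11.6), PSAT1 (217 ± 4.96), MTHFD2 (198 ± 8.23), MTHFD1L (129 ± 1.05), MAT2A (124 ± 1.74), PSPH (68.2 ± 9.57), SHMT1 (52.0 ± 1.97) and SLC19A1 (12.3 ± 0.447 TPM, SD, n = 3), with no overlap between neighbours. MTHFD1 stood highest in shNSUN2, and PHGDH in FaDu. With the summed length of all annotated exons in place of 1 transcript, PHGDH ranked 8 in shNSUN2 and 4 in FaDu. In FaDu that length also placed PSAT1 at 1, MTHFD2 at 2 and MTHFD1 at 5, and in shNSUN2 it placed MTHFD2 at 3. The order of the genes within a group, FaDu included, therefore depends on the length used, while MTHFD1 was at 1 in shNSUN2 and SLC19A1 at 10 in both groups with either length.

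The balance between the compartments was compared within each library, where library size cancels. The log2 ratio of SHMT2 to SHMT1 (TPM) was 1.69, 1.85 and 1.94 in shNSUN2, against 2.65, 2.61 and 2.60 in FaDu. The log2 ratio of MTHFD2 to MTHFD1 was -1.77, -1.27 and -2.20 in shNSUN2, against -0.54, -0.49 and -0.51 in FaDu. The log2 ratio of MTHFD1L to MTHFD1 was -2.34, -2.05 and -2.25 in shNSUN2, against -1.17, -1.15 and -1.07 in FaDu. In each of the 3 ratios every shNSUN2 library lay lower than every FaDu library, and the FaDu libraries varied less.

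The differences of the means were -0.79, -1.23 and -1.08 on the log2 scale for SHMT2/SHMT1, MTHFD2/MTHFD1 and MTHFD1L/MTHFD1. An exact two-sided permutation test gave p = 0.1 for each, also after adjustment over the 3 ratios, which is the smallest p that 3 against 3 libraries allow. Without any 1 library the differences ranged from -0.85 to -0.72, from -1.47 to -1.01 and from -1.17 to -1.02. The ratios with MTHFD1 share their denominator, and MTHFD1 was itself called higher. SHMT1, the denominator of the remaining ratio, was called higher too, while none of the numerators was called. As summed TPM, SHMT2, MTHFD2 and MTHFD1L made up 45.3%, 51.6% and 48.8% of both arms in shNSUN2, against 66.0%, 65.5% and 66.2% in FaDu. The sum of the mitochondrial enzymes was 524 ± 24.6 TPM in shNSUN2 and 648 ± 20.3 TPM in FaDu, and that of the cytosolic enzymes 556 ± 45.2 TPM in shNSUN2 and 335 ± 12.4 TPM in FaDu (SD, n = 3 each). These sums and percents also depend on the transcript lengths used, which cancel from the differences of log2 ratios.

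**Figure D3:**
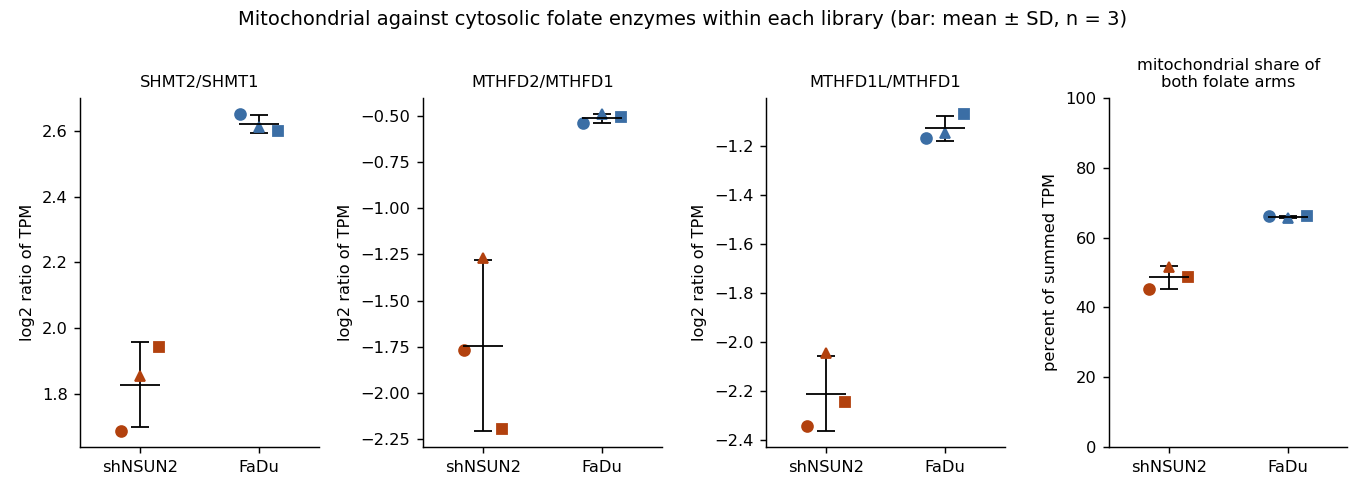
Log2 ratios of TPM for 3 pairs of mitochondrial and cytosolic folate enzymes, and the mitochondrial percent of the summed TPM of both arms, in the 3 shNSUN2 libraries (left, orange) and the 3 FaDu libraries (right, blue), with mean and SD. In every panel all shNSUN2 libraries lie lower than all FaDu libraries, and the percent is 45.3 to 51.6 in shNSUN2 against 65.5 to 66.2 in FaDu.

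Around the members, the genes that handle serine and folate gave a mixed picture. Across 10 lists of neighbouring genes, with 97 genes of which 89 were tested, 11 rose and 19 fell in shNSUN2. Over all tested genes 8.54% were called higher and 9.97% lower, the shares against which the counts of each list stand. The lists were chosen with earlier results of these data known, so a list can exceed these shares by selection alone. The median log2 fold change of the 89 tested genes was -0.08. Named examples are the up to 3 genes with the smallest adjusted p in each direction, together with a few enzymes of key steps.

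Of 9 tested carriers of serine and glycine, 4 fell and none rose, with a median log2 fold change of -0.62. SFXN1, which brings serine into mitochondria, had 39.7, 37.5 and 40.2 CPM in shNSUN2, against 94.4, 88.1 and 90.3 CPM in FaDu. No library of either group came near the other group, with a log2 fold change of -1.22 (SE 0.11, with adjusted p = 0.000779 in edgeR). SFXN3, its relative, and SLC6A9, a glycine transporter of the plasma membrane, fell by 0.62 and 1.20 on the log2 scale. Both calls were lost without shNSUN2 replicate 1 or any FaDu library (adjusted p up to 0.0781 and 0.0644).

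Of 12 genes of glycine cleavage and serine use, 1 rose and 2 fell. GLDC, the decarboxylase of the glycine cleavage system, had 21.2, 24.7 and 22.9 CPM in shNSUN2, against 41.9, 46.2 and 36.5 CPM in FaDu (log2 fold change -0.86, SE 0.14, with adjusted p = 0.00638 in edgeR). SPTLC2, a subunit of serine palmitoyltransferase, fell by 0.72, and PTDSS1, a phosphatidylserine synthase, rose by 0.75 on the log2 scale. The call of SPTLC2 was lost without FaDu replicate 2 or 3 (adjusted p up to 0.0708), and that of PTDSS1 without shNSUN2 replicate 1 or any FaDu library (up to 0.0796).

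Both 10-formyltetrahydrofolate dehydrogenases, which release folate-bound carbon as carbon dioxide, fell. The cytosolic ALDH1L1 had 1.67, 1.89 and 1.82 CPM in shNSUN2, against 9.60, 10.7 and 10.2 CPM in FaDu, with a log2 fold change of -2.50 (SE 0.17, with adjusted p = 0.000327 in edgeR). The mitochondrial ALDH1L2 had 3.03, 4.73 and 0.889 CPM in shNSUN2, against 28.8, 32.4 and 33.7 CPM in FaDu, with a log2 fold change of -3.46 (SE 0.55, with adjusted p = 0.00875 in edgeR). For both genes every shNSUN2 library lay far under every FaDu library, and ALDH1L2 spread widely within shNSUN2. ALDH1L1 was the only gene called lower of 7 tested cytosolic folate users, among which 2 were called higher. TYMS, the thymidylate synthase, had 93.1, 91.9 and 110.3 CPM in shNSUN2, against 62.6, 56.5 and 50.5 CPM in FaDu (log2 fold change 0.80, SE 0.14, with adjusted p = 0.00789 in edgeR). ATIC, of the last steps of purine synthesis, rose by 0.56 on the log2 scale, a call lost without shNSUN2 replicate 1 or any FaDu library (adjusted p up to 0.132). ALDH1L2 was the only 1 called of 5 mitochondrial folate genes, with MTHFD2L, the isozyme of MTHFD2, at -0.27 (edgeR adjusted p = 0.333).

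Of 5 tested genes of folate uptake and storage, SLC46A1 alone was called, lower by a log2 fold change of -0.40 (edgeR adjusted p = 0.0436). It encodes the proton-coupled folate transporter and so moved opposite to SLC19A1. It had 30.1, 28.5 and 28.3 CPM in shNSUN2, against 37.5, 38.2 and 39.0 CPM in FaDu. The call was lost without every library but shNSUN2 replicate 3 (adjusted p up to 0.152), with log2 fold changes from -0.42 to -0.38, and with no filter on low counts (-0.43, adjusted p = 0.0567).

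Of 10 tested genes of the methionine cycle, 1 fell and none rose, with a median log2 fold change of 0.15. The gene was AHCYL2, a relative of the hydrolase AHCY, at -0.72 (edgeR adjusted p = 0.014), a call lost without FaDu replicate 1 or 2 (adjusted p up to 0.0679). AHCY, which clears the product of methylation reactions, was at 0.34 (edgeR adjusted p = 0.142). Of 6 tested genes of transsulfuration and glutathione, CBS fell by 0.54 on the log2 scale, a call lost without shNSUN2 replicate 1 or any FaDu library (adjusted p up to 0.0816). CTH, the next enzyme of that route, was at -0.60 (edgeR adjusted p = 0.189), and at -1.01 without shNSUN2 replicate 2 (adjusted p = 0.0174).

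Polyamine synthesis draws on S-adenosylmethionine, and methionine salvage recovers its sulfur. The list has 9 genes, 5 of which rose while none fell, and its median log2 fold change was 0.49. SRM, the spermidine synthase, had 83.3, 65.3 and 94.5 CPM in shNSUN2, against 33.5, 35.6 and 32.8 CPM in FaDu, so that every shNSUN2 library was far higher (log2 fold change 1.25, SE 0.16, with adjusted p = 0.00241 in edgeR). The salvage enzymes ADI1 and ENOPH1 rose by 0.95 and 0.64 on the log2 scale. The call of ADI1 was lost without FaDu replicate 3 (adjusted p = 0.051), and that of ENOPH1 without FaDu replicate 1 or 3 (0.0516 and 0.0548).

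Of 16 known ATF4 targets outside the pathway, 8 fell and 2 rose, with a median log2 fold change of -0.97. ASNS, the asparagine synthetase, had 108, 191 and 110.3 CPM in shNSUN2, against 356, 352 and 369.7 CPM in FaDu (log2 fold change -1.40, SE 0.22, with adjusted p = 0.00592 in edgeR). As with PHGDH and PSAT1, shNSUN2 replicate 2 lay nearest to FaDu. STC2, a secreted glycoprotein, and SLC7A5 and SLC3A2, the subunits of an amino acid transporter, fell by 1.13, 1.04 and 0.90 on the log2 scale. The transcription factor ATF5 and CHAC1, an enzyme that degrades glutathione, rose by 2.08 and 0.89. The call of CHAC1 was lost without shNSUN2 replicate 2 or FaDu replicate 2 or 3 (adjusted p up to 0.0907).

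Transcripts of the regulators themselves mostly did not pass. ATF4 had 1122, 1445 and 1366 CPM in shNSUN2, against 1391, 1269 and 1202 CPM in FaDu, and the groups overlapped (log2 fold change 0.03, SE 0.13, with adjusted p = 0.91 in edgeR). ATF4 is known to be set largely at translation, which these data do not measure. MYC had 71.6, 128 and 7.20 CPM in shNSUN2, against 143, 9.54 and 91.8 CPM in FaDu, a spread within groups so wide that no difference was detectable (log2 fold change -0.24, SE 1.24). Of 10 regulators, EIF2S1 alone was called, higher by 0.62 on the log2 scale. It encodes the alpha subunit of the initiation factor eIF2, and its call was lost without any 1 FaDu library (adjusted p up to 0.0756).

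**Figure D4:**
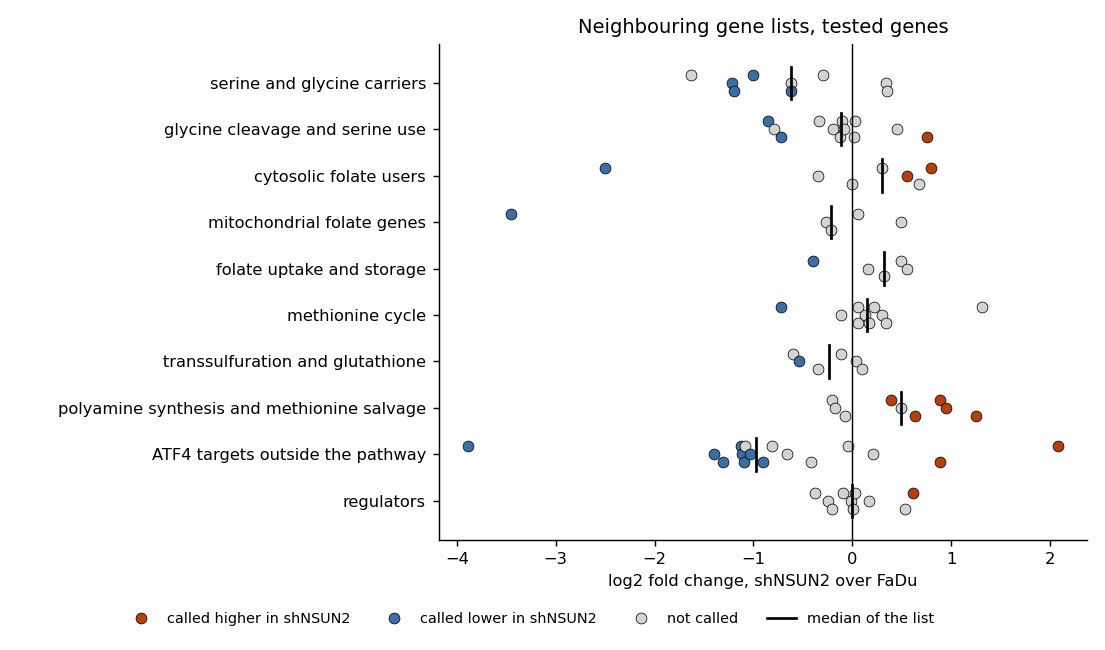
Log2 fold changes of shNSUN2 over FaDu (horizontal axis) for the tested genes of 10 neighbouring lists, 1 point a gene, coloured by call, with the list's median as a bar. Polyamine and salvage genes lie mostly to the right, with a median of 0.49, and serine and glycine carriers and ATF4 targets to the left, with medians of -0.62 and -0.97.

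The members differed in how firmly their values held. PHGDH, SLC19A1 and MTHFD1 were called under all 13 alternative settings tried, with log2 fold changes of -1.46 to -1.17, 0.89 to 1.21 and 0.70 to 0.83 when single libraries were left out. PSAT1 and SHMT1 kept their direction under all of them and lost their call under some. Calls were fewer over all tested genes too, at 10.4% without shNSUN2 replicate 1 and 6.76% to 7.9% without a FaDu library, against 18.5% with every library. A call lost in those fits, here or among neighbouring genes, is therefore not a trait of that gene alone. The mitochondrial enzymes were lower in shNSUN2 under every setting, and each passed the test under some.

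**Figure D5:**
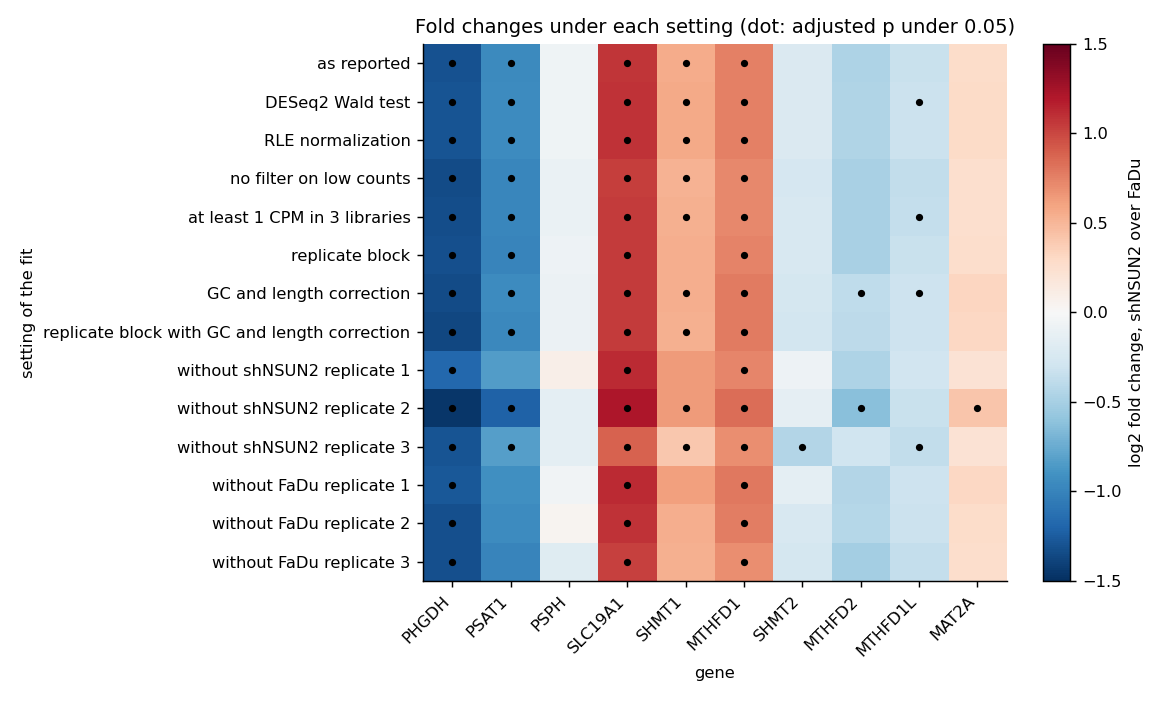
Log2 fold change of shNSUN2 over FaDu (colour) for the 10 genes (columns) under each setting of the fit (rows), with a dot where the adjusted p was under 0.05. PHGDH, SLC19A1 and MTHFD1 carry a dot in every row, and SHMT2 only without shNSUN2 replicate 3.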

How the data were processed

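The authors deposited 1 table of estimated counts per gene, with 58825 Ensembl identifiers and 6 libraries, each column matched to a sample by title. Among the tools listed in the submitters' processing notes are StringTie 1.3.0, HISAT2 2.0 and Bowtie 0.12.2, with no roles. The only build listed there is of the mouse, which does not match human identifiers, and for the human build and annotation the sources used here give nothing. Values are whole. The value 4 was 3.25 to 3.81 times as frequent as the average of 3 and 5, so the error of low values exceeds that of plain counting, and no counting intervals are given. Symbols came from a gene name table (58472 matched) and GENCODE 29 (58552 matched), which also gave positions and lengths.

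Tests used the quasi-likelihood fit of edgeR 4.0.16 under R 4.3.3 (glmQLFit and glmQLFTest, robust, TMM, filterByExpr with minimum count 10 and minimum total 15), group alone in the design, two-sided, with Benjamini-Hochberg adjustment over all 19081 tested genes and a threshold of 0.05. SE is the log2 fold change divided by the square root of F. CPM are TMM-scaled. TPM use the APPRIS principal transcript, the longest where there are several. Alternatives were DESeq2 1.42.0, RLE factors, 2 other filters, a replicate block, a spline correction for GC content and length, and leaving out each library. The procedure was tested on simulated data that lacked the GC and length dependence and the excess of the value 4 seen here, so that test does not cover them. The members and lists were chosen with earlier results of these data known. Named list genes are those with the smallest adjusted p, up to 3 a list and direction, plus fixed key enzymes and ATF4 and MYC. Some genes that this rule or the marker lists name are not reported here.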

Additional observations from a re-analysis of the deposited data

How the results depend on the processing

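For single genes, 460 of 533 values under the alternatives kept their direction and side of the threshold, 53 lost their call, 9 gained one and 11 changed sign, all 11 of genes that were not called. With shared replicate numbers as a replicate block, 969 genes were called higher and 1401 lower, and 2 members higher and 2 lower, SHMT1 losing its call (log2 fold change 0.55, adjusted p = 0.0784). SFXN3, ATIC, CBS and SLC46A1 also lost theirs (adjusted p = 0.0527, 0.0703, 0.0538 and 0.118), SLC46A1 likewise with the block and the GC and length correction (0.104). Correlations of same-numbered libraries' deviations were -0.04, 0.02 and 0.01. A shared culture or preparation with a small effect would not show in them, so whether the numbers pair the libraries is not known. The GC and length correction gave 2463 genes called higher and 4 members called lower. Without 1 library, calls ranged from 478 to 2090 higher and 861 to 2181 lower over all genes, from 1 to 4 members lower, and from 4 to 14 higher and 11 to 21 lower among neighbouring genes. The lowest counts over all genes and over neighbouring genes came without a FaDu library; 1 member was called lower without shNSUN2 replicate 1 or any FaDu library. In the same fits the log2 fold change of PSPH ranged from -0.18 to 0.091, that of ATF4 from -0.048 to 0.13 and that of MYC from -1.05 to 0.44. ATF4 was at -0.0058 with no filter, -0.0017 with at least 1 CPM in 3 libraries, -0.039 with the GC and length correction and -0.045 with that correction and the block. The cause of these changes was not tested. The 3 within-library ratios kept their direction with a prior of 5 counts and without each library; CPM in place of TPM gives the same differences by construction.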

Other observations

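Replicate 2 of shNSUN2 was the highest shNSUN2 library for both members called lower and for 6 of the 8 ATF4 targets called lower, a pattern picked after the values were seen. Over all 1903 genes called lower it was the highest for 47.3%, and over all 19081 tested genes for 29.1%. MYC and NFE2L2 varied by several-fold between libraries of 1 group. NFE2L2, chosen after its values were seen, had 172, 169 and 31.3 CPM in shNSUN2 and 163, 165 and 156 CPM in FaDu.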
